A study of Mus musculus with 4 samples.

Results

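The 10 genes of the Bcl2 family described here were followed across the cells of the growing mouse tibia. They were chosen by name, as rows of the gene count matrix, and all 10 were found among its 31053 genes. All 10 reached at least 5 CPM (transcripts counted per 1000000 of a class) in at least 1 class of cells. The group holds 3 pro-survival genes (Bcl2, Bcl2l1 and Mcl1), 2 pore-forming effectors (Bax and Bak1), 3 BH3-only genes (Bcl2l11, Bbc3 and Pmaip1) and 2 mitophagy receptors (Bnip3 and Bnip3l). The cells came from 1 library, made from the pooled tibiae (proximal and distal parts) of 1 male mouse at postnatal day 6. The mouse carried Col10a1Cre, Rosa26-Tdtomato, Irx3 +/Δ and Irx5 +/-, a genotype that served as the heterozygous control for Irx3 and Irx5. The Cre is driven from Col10a1, so tdTomato marks hypertrophic chondrocytes (HCs) and their descendants. The study writes the Irx3 genotype as +/ΔHC, its form for an allele deleted in HCs by this Cre. HCs and their descendants may thus differ in Irx3 dose from the other classes, which was not tested. Every class described here shares Irx5 +/-. With no second library nothing was tested, and intervals are 95% intervals of counting error only.

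Proteins of the Bcl2 family decide at the outer mitochondrial membrane whether a cell enters apoptosis. Bax and Bak1 open pores that release cytochrome c, the proteins of Bcl2, Bcl2l1 (Bcl-xL) and Mcl1 hold them in check, and BH3-only proteins free or activate them. Bnip3 and Bnip3l carry a BH3-like stretch but are best known as receptors that bring mitochondria to autophagosomes. HCs are the last stage of growth plate cartilage, long described as cells that die at the chondro-osseous junction and now also known to give rise to osteoblasts, and the growth plate in which they arise is poor in oxygen.

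The 8255 cells kept were grouped without use of the 10 genes, and 22 of 28 clusters took a class name from fixed marker lists. The HC-like class held 104 cells with a median depth of 33060 transcripts per cell, counted by their molecular barcodes (UMIs). It carried 11241 CPM of Col10a1, the collagen gene that defines HCs, against 963 CPM in pre-HC-like cells, and 87 of its cells (83.7%) had more than 14 UMIs of WPRE, the reporter's 3′ element. Phospho1 and Dlx3 were under 10 CPM there, and the other 5 of 7 HC markers were above it. The class was compared with 387 pre-HC-like, 1202 maturing, 158 proliferating and 80 resting chondrocyte-like cells, 753 immature and 433 mature osteoblast-like cells, and 2843 blood cells of erythroid, B, neutrophil and monocyte or macrophage type. Median depth ran from 7710 UMIs in monocyte or macrophage-like cells to the value of HC-like cells, and the median mitochondrial share was 4.47% in HC-like against 3.13% in pre-HC-like cells. Some leukocyte transcripts were higher in the HC-like than in the pre-HC-like class. Ptprc, the pan-leukocyte antigen gene, stood at 10.3 CPM against 1.97 CPM in pre-HC-like cells. Proliferating chondrocyte-like cells, of which 15.8% were called doublets, were close to the HC-like level at 9.16 CPM of Ptprc. Neutrophil markers such as S100a9 (1614 against 51.4 CPM) and Camp (654 against 15.8 CPM) were also higher. The neutrophil markers Elane (1.71 against 2.65 CPM), Mpo (3.71 against 12.5 CPM) and Prtn3 (7.42 against 7.53 CPM) were not. The red cell gene Hba-a1 was at 0.665% of its erythroid-like level. Of the immature osteoblast-like cells, 275 belong to a cluster led by Cxcl12, Adipoq, Lpl and Lepr, genes known from marrow stroma, of which Cxcl12 and Lepr are also on the marker list of that class. Levels below rank the 15 named classes, and the 6 unnamed clusters are outside that order. The monocyte or macrophage-like class holds clusters led by Il1b and by Tnf. C1qa, a macrophage marker, led an unnamed cluster of 399 cells, which held 701 CPM of Mcl1, 98.5 CPM of Bcl2l11 and 30.4 CPM of Pmaip1.

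**Figure D1:**
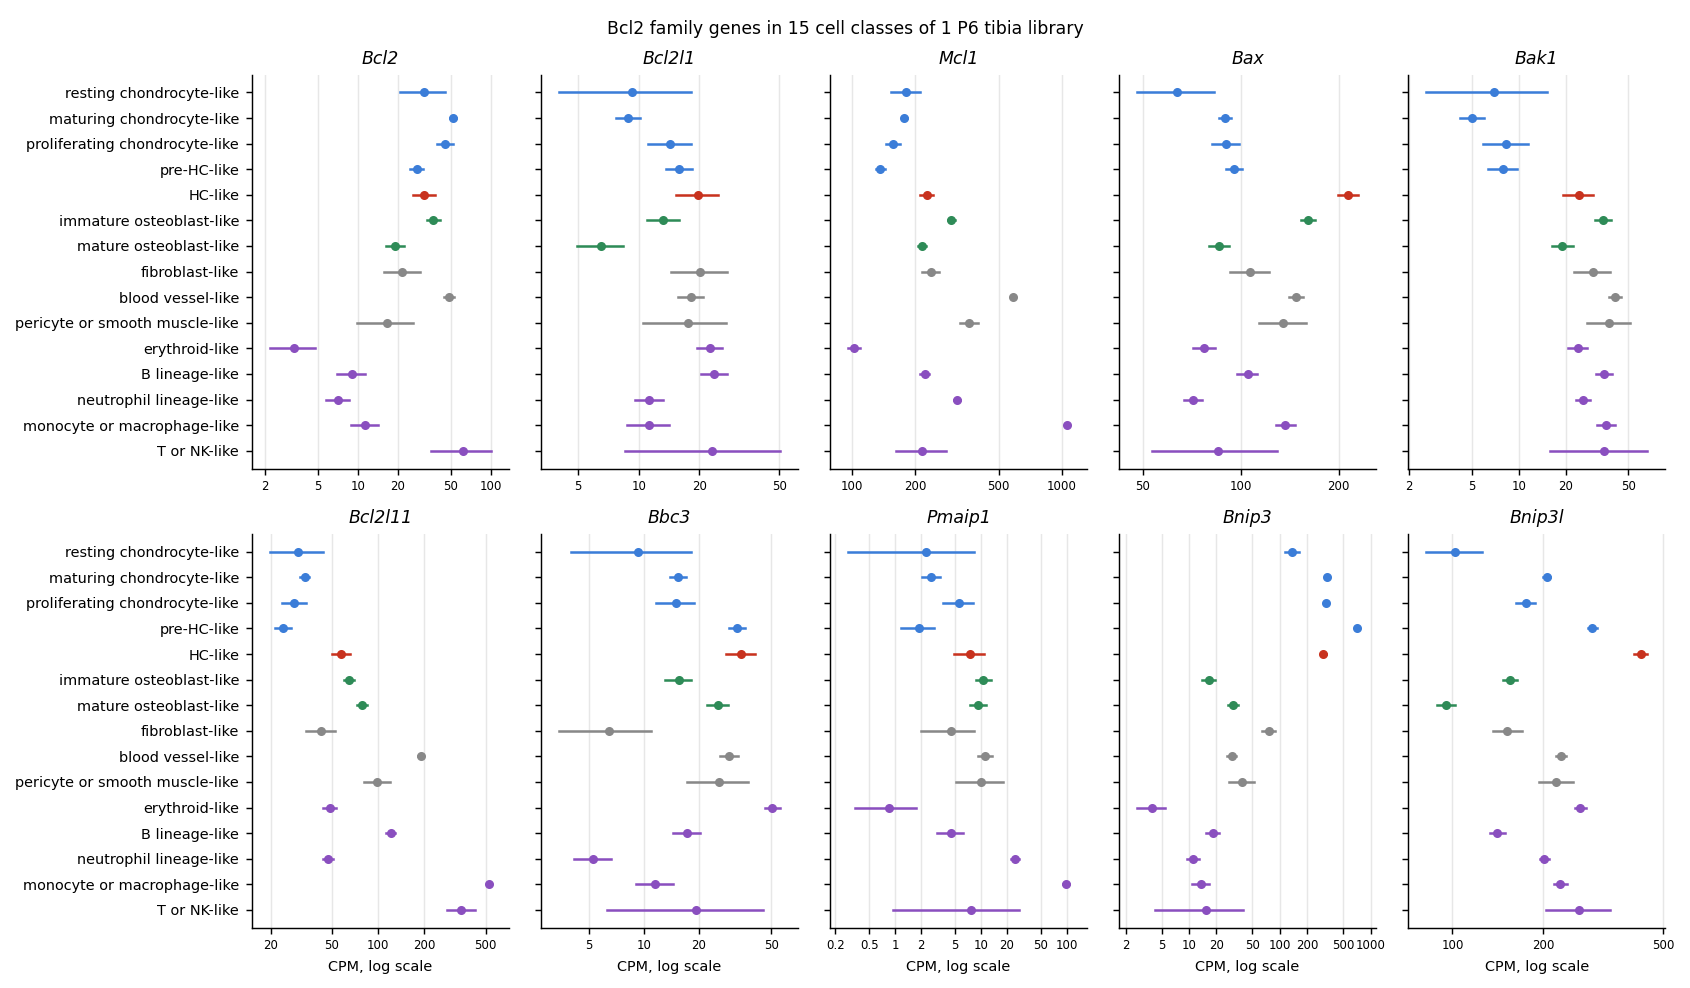
Level of each of the 10 genes in 15 classes, as UMIs per 1000000 UMIs of the class on a log axis that differs between panels. Points are the level of the class and lines its 95% Poisson interval, with chondrocyte classes in blue, HC-like cells in red, osteoblasts in green, other stroma and vessels in grey and blood cells in purple. Of these named classes, HC-like cells have the most Bax and Bnip3l, at 214 and 422 CPM, and Bnip3 is highest in pre-HC-like cells, at 717 CPM.

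Among the pro-survival genes, Bcl2 was higher in the named skeletal and vascular classes than in the erythroid, B lineage, neutrophil and monocyte or macrophage-like classes. It stood at 31.2 CPM in resting, 51.8 CPM in maturing, 45.4 CPM in proliferating and 27.7 CPM in pre-HC-like chondrocytes, and at 31.7 CPM (26.0 to 38.1, 111 UMIs) in HC-like cells. The level was thus lower at the hypertrophic end than in maturing cells, and the pre-HC-like and HC-like intervals overlapped. Immature osteoblast-like cells held 37.0 CPM and mature ones 19 CPM, with blood vessel-like cells at 48.8 CPM. Erythroid-like (3.29 CPM), neutrophil lineage-like (7.05 CPM), B lineage-like (8.97 CPM) and monocyte or macrophage-like cells (11.4 CPM) formed the low end. The 31 T or NK-like cells had the highest value, 61.8 CPM, from 16 UMIs with an interval of 35.3 to 100.4 CPM. Other blood cells were not all low. Within the B lineage-like class, a cluster of 39 cells led by Iglc1 held 58.7 CPM. An unnamed cluster with plasmacytoid dendritic and basophil or mast markers held 27.0 CPM.

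Bcl2l1, which encodes Bcl-xL, was lowest in the mature osteoblast-like (6.49 CPM), maturing (8.87 CPM) and resting chondrocyte-like cells (9.25 CPM). It was 14.3 CPM in proliferating, 15.9 CPM in pre-HC-like and 19.7 CPM (15.3 to 24.9, 69 UMIs) in HC-like cells. The HC-like interval overlapped those of the pre-HC-like and proliferating cells and lay above that of the maturing cells. Erythroid-like cells, in which Bcl-xL is the known survival factor, held 22.5 CPM, and B lineage-like cells 23.7 CPM. The B lineage-like clusters led by Igkc, Iglc1 and Vpreb1 held 45.4, 50.3 and 8.69 CPM. Barcodes with under 1600 genes, left out of the classes, held 113 CPM beside 74818 CPM of the red cell gene Hba-a1. Neighbouring classes overlapped at every step of the order for this gene. Between the immature osteoblast-like clusters the value was not even: the cluster led by Cxcl12 and Adipoq, genes also known from marrow stroma, held 22.6 CPM and the one led by Tnc and Wif1 held 7.84 CPM.

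Mcl1, a short-lived guardian that many blood cells depend on, gave most of the summed UMIs of Bcl2, Bcl2l1 and Mcl1 in all 15 classes. Its level was 178 CPM in maturing, 157 CPM in proliferating and 137 CPM in pre-HC-like chondrocytes, and 227 CPM (211 to 243, 795 UMIs) in HC-like cells. The pre-HC-like class was the lowest of the chondrocytes, and the HC-like interval lay above those of all the other chondrocyte classes except the resting one (154 to 212). Immature osteoblast-like cells (298 CPM) were above and mature ones (217 CPM) beside the HC-like level. Monocyte or macrophage-like cells stood apart at 1057 CPM, and erythroid-like cells were the lowest class at 103 CPM.

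The share of each gene in the summed UMIs of Bcl2, Bcl2l1 and Mcl1 differed between the chondrocyte classes. This is a share of captured transcripts and not of protein. Bcl2 made up 21.7% (exact binomial interval 20.6 to 22.8) of these UMIs in maturing, 15.3% (13.8 to 16.9) in pre-HC-like and 11.4% (9.46 to 13.5) in HC-like cells. These 3 intervals did not overlap, but resting cells, at 14.1% (9.48 to 19.8) for Bcl2 and 81.8% for Mcl1, were close to HC-like cells. Mcl1 went from 74.6% in maturing and 75.9% in pre-HC-like cells to 81.5% in HC-like, 85.6% in immature and 89.5% in mature osteoblast-like cells. Bcl2l1 was 3.71% in maturing, 8.82% in pre-HC-like and 7.08% in HC-like cells, and its largest share, 17.6%, was in erythroid-like cells. In the 4 pooled blood types Bcl2 made up 1.84%, and in monocyte or macrophage-like cells Mcl1 alone made up 97.9%. Bcl2a1b, a pro-survival gene not among these 3, stood at 625 CPM in monocyte or macrophage-like cells, where Mcl1 was at 1057 CPM.

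**Figure D2:**
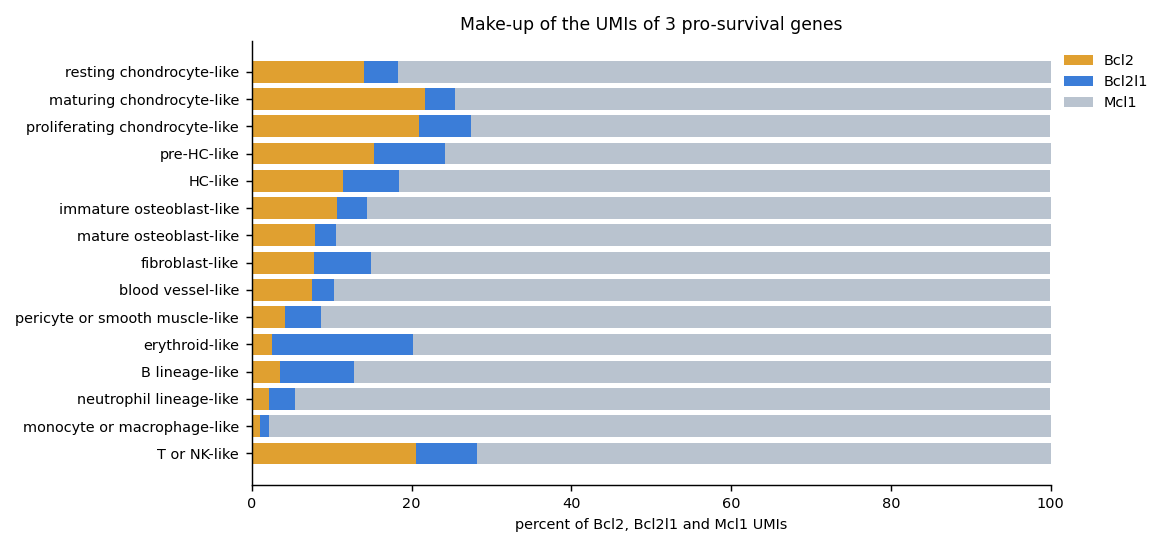
Stacked bars of the share, in percent, of Bcl2, Bcl2l1 and Mcl1 in the summed UMIs of the 3 genes in each class. The Bcl2 share is 21.7% in maturing chondrocyte-like, 11.4% in HC-like and 1.05% in monocyte or macrophage-like cells.

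Of the effectors, Bax was higher in HC-like cells than in any other named class, although an unnamed cluster of 399 cells with macrophage and osteoclast markers held 218 CPM. Its level was 63.6 CPM in resting, 89.7 CPM in maturing, 90.1 CPM in proliferating and 95.5 CPM in pre-HC-like cells, against 214 CPM (199 to 230.1, 751 UMIs) in HC-like cells. The 4 earlier classes were close to each other, and the HC-like interval did not meet that of any of them. Immature osteoblast-like cells came next with 161 CPM (153 to 169.6), while mature ones had 85.9 CPM. In the 49 HC-like cells with at least 10000 CPM of Col10a1, Bax was 183 CPM (163 to 204), which overlapped the immature osteoblast-like interval. With HC-like cells defined by at least 5000 CPM of Col10a1, the log2 ratio was 0.08 over immature osteoblast-like and 0.82 over pre-HC-like cells. Across blood, Bax ranged from 71.3 CPM in neutrophil lineage-like to 137 CPM in monocyte or macrophage-like cells. With each cell thinned to 5000 UMIs, 66.3% (56.4 to 75.3) of HC-like and 36.3% (31.5 to 41.3) of pre-HC-like cells had a Bax UMI. Before thinning the shares were 97.1% and 89.7%, and the lowest thinned share of any class was 23.5% in neutrophil lineage-like cells, whose median depth was 13572 UMIs.

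Bak1, the other effector, was lower in early cartilage than anywhere else. Resting (6.94 CPM), maturing (5.04 CPM), proliferating (8.31 CPM) and pre-HC-like cells (7.88 CPM) were the 4 lowest of the 15 classes. HC-like cells had 24.0 CPM (19.1 to 29.7, 84 UMIs), an interval clear of all 4. That level was below immature osteoblast-like cells (34.4 CPM) and blood vessel-like cells (41.0 CPM, the highest class), and it overlapped mature osteoblast-like (18.9 CPM), neutrophil lineage-like (25.6 CPM) and erythroid-like cells (23.7 CPM).

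The BH3-only gene Bcl2l11 (Bim) was highest in monocyte or macrophage-like (525 CPM), T or NK-like (348 CPM), blood vessel-like (189 CPM) and B lineage-like cells (121 CPM). The chondrocyte classes before hypertrophy lay between 24.1 CPM (pre-HC-like) and 33.2 CPM (maturing), and HC-like cells at 57.3 CPM (49.7 to 65.8, 201 UMIs). Immature and mature osteoblast-like cells held 64.5 and 78.3 CPM, and the HC-like interval overlapped that of the immature ones (59.4 to 69.9).

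Bbc3 (Puma), a p53 target, had a different order. It was 9.25 CPM in resting, 15.4 CPM in maturing, 14.9 CPM in proliferating, 32.3 CPM in pre-HC-like and 33.9 CPM (28.1 to 40.6, 119 UMIs) in HC-like cells. The pre-HC-like and HC-like cells had overlapping intervals and were above the other chondrocyte classes. Only erythroid-like cells (50.6 CPM) were higher among the 15 classes, and an unnamed cluster led by Pf4 held 56.9 CPM. The log2 ratio of HC-like to pre-HC-like cells, 0.07, depended on the processing, at 0.81 with at most 5% mitochondrial UMIs and -0.39 when thinned. Thinned shares of cells with a UMI were 15% in pre-HC-like and 11.5% in HC-like cells, and no order is read from them.

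Pmaip1 (Noxa), which neutralises the protein of Mcl1, had few UMIs in cartilage. Pre-HC-like cells had 1.88 CPM from 22 UMIs, maturing cells 2.64 CPM, proliferating cells 5.54 CPM (3.62 to 8.12) and HC-like cells 7.42 CPM (4.84 to 10.9) from 26 UMIs. The proliferating and HC-like intervals overlapped. The 26 UMIs lay in 14 of 104 HC-like cells, and the 22 UMIs in 18 of 387 pre-HC-like cells. Counting intervals for this gene do not cover such an uneven spread over cells. Immature (10.7 CPM) and mature osteoblast-like cells (9.35 CPM) overlapped the HC-like interval. Monocyte or macrophage-like cells (98.5 CPM) were far above, and erythroid-like cells had 0.852 CPM. Neutrophil lineage-like cells held 24.7 CPM, from a cluster led by Ngp at 8.10 CPM and one led by Elane at 39.5 CPM.

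Of the 26 Pmaip1 UMIs in HC-like cells, 24 lay in the 55 cells with under 10000 CPM of Col10a1 (13.5 CPM, 8.65 to 20.1) and 2 in the 49 cells above that level (1.16 CPM, 0.140 to 4.18). The same 55 cells held 2137 CPM of Mmp13, the collagenase gene of late HCs and osteoblasts, against 267 CPM, and 472 CPM of Col1a1 against 62.5 CPM. Their median mitochondrial share was 5.30% against 3.61%, and 46 of them had more than 14 WPRE UMIs. Bax was also higher in the 55 cells, at 245 CPM (222 to 269) against 183 CPM (163 to 204), and so was Bcl2l11 by value, at 66.9 CPM against 47.5 CPM with overlapping intervals. Bcl2 showed the opposite order, 24.7 CPM against 38.8 CPM, again with overlapping intervals.

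Leukocyte transcripts bear on these 3 genes, since Mcl1, Bcl2l11 and Pmaip1 were, of the named classes, highest in monocyte or macrophage-like cells. The unnamed cluster with plasmacytoid dendritic and basophil or mast markers held 448 CPM of Mcl1, 497 CPM of Bcl2l11 and 129 CPM of Pmaip1. Of 9 monocyte or macrophage markers, 8 had a UMI in HC-like cells and Adgre1 was at 0. F13a1 stood at 590.1 CPM in HC-like cells, above the 259.8 CPM of the monocyte or macrophage-like class itself. The other 8 markers summed to 21.1 CPM in HC-like and 5.65 CPM in pre-HC-like cells, or 1.02% and 0.272% of their level in monocyte or macrophage-like cells. With F13a1 among them the share was 26.1%. At 1.02% those cells would bring 10.7 CPM of Mcl1, 5.33 CPM of Bcl2l11 and 1.0 CPM of Pmaip1. The neutrophil markers summed to 4131 CPM in HC-like cells and 144 CPM in pre-HC-like cells, 2.56% and 0.0892% of their own class, and 2.56% of that class corresponds to 8.13 CPM of Mcl1, 1.21 CPM of Bcl2l11 and 0.633 CPM of Pmaip1. Elane, Mpo and Prtn3, which are among these markers, were not higher in HC-like cells, so the mix of the whole neutrophil class need not apply. Single neutrophil markers ranged from 0.0576% of the class level for Elane to 19.8% for Retnlg. The part of leukocyte RNA in these levels was not tested beyond these values. Without the 13 HC-like cells that had a Ptprc UMI, and without such cells in the other skeletal classes, the log2 ratios of HC-like to pre-HC-like cells were 0.70 for Mcl1, 1.18 for Bcl2l11 and 1.48 for Pmaip1.

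The mitophagy receptor Bnip3 set cartilage apart from all other tissue. It stood at 136 CPM in resting, 331 CPM in maturing, 326 CPM in proliferating, 717 CPM (702 to 732, 8373 UMIs) in pre-HC-like and 300.4 CPM (282 to 319, 1053 UMIs) in HC-like cells. The pre-HC-like class was above all others, and the HC-like level was close to that of maturing and proliferating cells. Outside cartilage the highest class was fibroblast-like at 75.3 CPM, with mature osteoblast-like cells at 30.6 CPM, immature ones at 16.6 CPM and erythroid-like cells, the lowest, at 3.90 CPM. The cartilage gene Col2a1 also had UMIs in those classes. Immature osteoblast-like cells held Col2a1 at 0.975% and Bnip3 at 2.31% of the pre-HC-like level, and for mature osteoblast-like cells the figures were 4.89% and 4.27%. In mature osteoblast-like cells a Bnip3 level of their own and cartilage RNA from outside the cell cannot be told apart, and with called doublets left out the log2 ratio of HC-like to mature osteoblast-like cells was 4.78 in place of 3.25.

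Single HC-like cells differed widely in Bnip3. The quartiles of the level per cell were 44.9 and 459.8 CPM around a median of 179.5 CPM, against 475 and 938 CPM around 699.7 CPM in pre-HC-like cells. After thinning, 59.6% (49.5 to 69.1) of HC-like and 91.7% (88.5 to 94.3) of pre-HC-like cells had a Bnip3 UMI, against 2.61% in erythroid-like cells (median depth 12916 UMIs). Unthinned shares were 83.7% and 98.4%. Among the maturing cells, the cluster led by Prelp and Ndufa4l2 held 385 CPM of Bnip3 and the one led by F3 and Il11 held 164 CPM.

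The promoter of Bnip3 is shown because its pattern over clusters was closest to that of Higd1a and Mgarp, genes known to respond to low oxygen (r 0.95 each). The cartilage link protein gene Hapln1 was nearly as close (0.94), so the pattern is also that of a cartilage gene. The bases before its RefSeq start are given 5′ to 3′ on the gene's strand, from build GRCm38.p6, chr7:138909507-138909756, minus strand. Capitals mark each match to ACGTG or GCGTG on either strand, the letters at the core of a hypoxia response element.
Bnip3: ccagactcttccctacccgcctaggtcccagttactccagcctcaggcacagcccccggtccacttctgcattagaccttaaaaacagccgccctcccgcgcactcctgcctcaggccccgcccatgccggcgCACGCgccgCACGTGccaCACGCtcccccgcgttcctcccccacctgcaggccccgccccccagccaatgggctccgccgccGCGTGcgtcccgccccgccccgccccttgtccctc
The 250 bases held 5 matches, which begin at -117, -108, -107, -99 and -35 from the start, and those at -108 and -107 overlap in 1 palindrome. Either word was present in 12679 of 32851 promoter windows of this length (38.6%), ACGTG in 16.6% and GCGTG in 28.2%. These are shares of windows with at least 1 match, and no share is given for 5 matches. Bax, Bbc3, Bcl2l11 and Bcl2l1 also had a window with at least 1 match, although other RefSeq starts of Bcl2l11 and Bcl2l1 had none, and neither did the windows of Bcl2, Mcl1 and Bak1. A match is a description of letters and not of a bound site.

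Bnip3l (Nix), the receptor that clears mitochondria from maturing red cells, was highest in HC-like cells. Its level went from 102 CPM in resting, 206 CPM in maturing and 175 CPM in proliferating to 291 CPM (281 to 301) in pre-HC-like and 422 CPM (401 to 444, 1479 UMIs) in HC-like cells. The HC-like interval met that of no other class. Erythroid-like cells held 266 CPM, immature osteoblast-like cells 155 CPM, and mature osteoblast-like cells 95.1 CPM, the lowest class. Red cell RNA in HC-like cells, at 0.665% of its own level by Hba-a1, stood beside a Bnip3l level at 159% of the erythroid-like one. Thinned shares of cells with a Bnip3l UMI were nearly equal, 71.2% in HC-like and 72.3% in pre-HC-like cells, while the median level per cell was 329 against 290.4 CPM and the upper quartile 503 against 404 CPM.

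Ratios between classes were taken as log2 of CPM with 1 CPM added, and a gene was called past 2-fold when the ratio was beyond 1 in either direction with at least 5 CPM in 1 of the classes. The comparisons share the HC-like cells, so their results are not independent. Against pre-HC-like cells, HC-like cells had more Pmaip1 (log2 ratio 1.55, counting interval 0.92 to 2.17), Bak1 (1.49, 1.10 to 1.89), Bcl2l11 (1.22, 0.96 to 1.47) and Bax (1.16, 1.03 to 1.29), and less Bnip3 (-1.25, -1.34 to -1.16). Thus 4 of 10 genes were past 2-fold higher, beside 25.3% of 9893 genes tested, and 1 was past 2-fold lower, beside 5.48%. Mcl1 (0.72) and Bnip3l (0.54) were higher with intervals above 0, and Bcl2 (0.19), Bcl2l1 (0.29) and Bbc3 (0.07) had intervals that included 0. The median was 0.63 over the 10 genes and 0.52 over all genes tested. Col2a1 stood at 52714 CPM in pre-HC-like and 9325 CPM in HC-like cells, and its part in the median over all genes was not tested. Relative to that median only Pmaip1 (1.02) and Bnip3 (-1.78) were past 2-fold, and Bcl2, Bcl2l1 and Bbc3 turned negative (-0.34, -0.24 and -0.45). At most 5% mitochondrial UMIs in any cell, with cells clustered anew, gave 0.45 for Pmaip1, 0.84 for Bcl2l11 and -0.77 for Bnip3. The calls of Pmaip1, Bcl2l11 and Bnip3 were each kept in 9 of 15 alternatives, that of Bax in 13 and that of Bak1 in 14. Within the HC-like class, the 59 cells with at most 5% mitochondrial UMIs held 42.6 CPM (34.5 to 52.1) of Bcl2l11 and the 45 other cells 83.1 CPM (68.1 to 101). For Pmaip1 the values were 3.14 and 14.9 CPM, and for Bnip3 347 and 219.6 CPM.

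**Figure D3:**
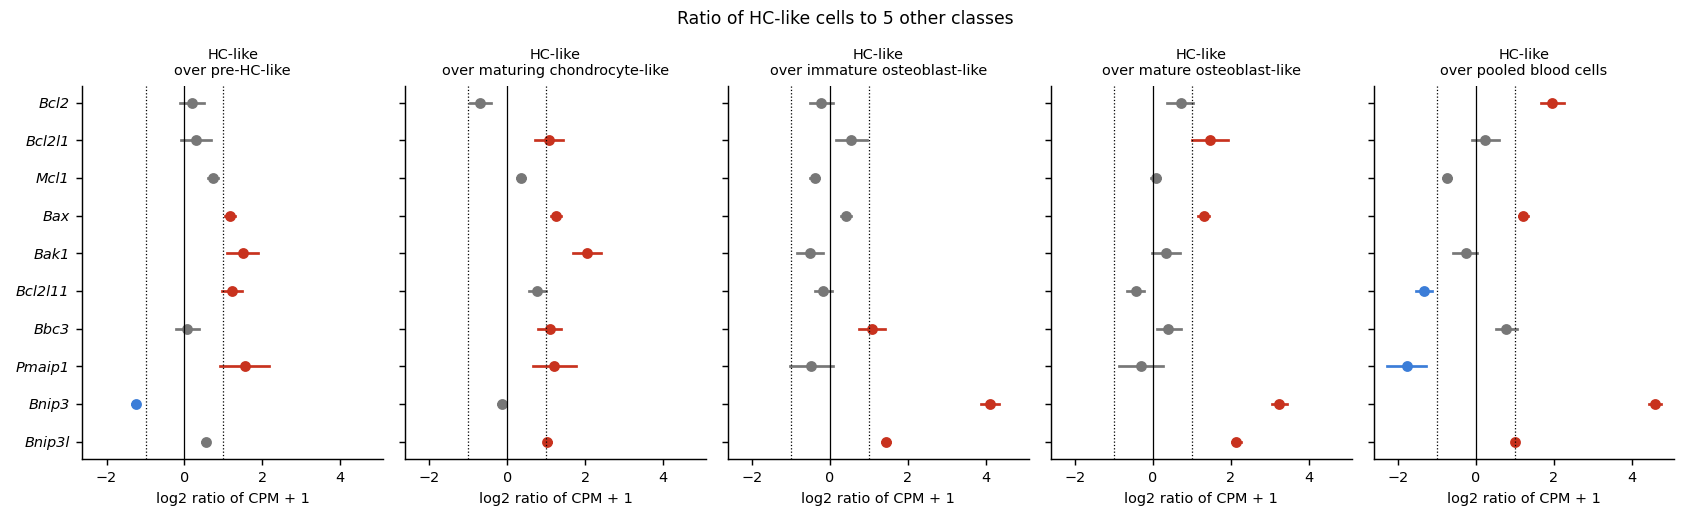
Log2 ratio of HC-like cells to 5 other classes for the 10 genes, with 1 CPM added. Points are ratios and lines 95% counting intervals, dotted lines mark 2-fold, and red and blue points are past 2-fold higher and lower. Bnip3 is at -1.25 against pre-HC-like cells and at 4.10 against immature osteoblast-like cells.

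Against maturing chondrocyte-like cells, 6 of 10 genes were past 2-fold higher in HC-like cells, beside 23.9% of genes tested, and none lower, beside 7.57%. They were Bak1 (2.05, 1.68 to 2.41), Bax (1.25), Pmaip1 (1.21), Bbc3 (1.09), Bcl2l1 (1.07) and Bnip3l (1.03). Bcl2 was lower by value (-0.69, -0.96 to -0.42), Bcl2l11 was at 0.77, Mcl1 at 0.35 and Bnip3 near even at -0.14. The effectors and 2 of the 3 BH3-only genes were thus among the higher genes, with 1 of the 3 pro-survival genes. The median was 1.05 over the 10 genes and 0.44 over all genes. Relative to the latter, Bak1 (1.6) was past 2-fold higher and Bcl2 (-1.14) past 2-fold lower, no other gene was past it, and Mcl1 turned negative (-0.10). Pmaip1 was even (-0.01) under at most 5% mitochondrial UMIs.

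From maturing to pre-HC-like cells, Bnip3 (1.11, 1.07 to 1.16) and Bbc3 (1.02, 0.82 to 1.22) were past 2-fold higher, 2 of 10 beside 3.01% of 8924 genes tested, and none was lower, beside 5.22%. Bcl2l1 (0.78), Bak1 (0.55) and Bnip3l (0.50) were higher and Bcl2 (-0.88), Bcl2l11 (-0.45) and Mcl1 (-0.38) lower, with intervals that excluded 0. Bax (0.09) was even, and Pmaip1 was under 5 CPM in both. The median was 0.29 over the 10 genes, Pmaip1 included, and -0.05 over all genes tested. Neither call is firm: with at most 5% mitochondrial UMIs Bnip3 was at 0.83, and with clusters at resolution 0.6 Bbc3 was at 0.58.

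Col10a1 in the cell itself gave a finer axis over the chondrocyte-like cells. The bins held 1666 cells under 100 CPM, 107 at 100 to 1000 CPM, 101 at 1000 to 10000 CPM and 57 at 10000 CPM or more. Bnip3l was 216, 295, 353 and 393 CPM over these bins and Bax 91.1, 105, 155 and 172 CPM, a steady order in which only neighbouring intervals overlapped. Bak1 was 6.02 and 7.07 CPM in the lower bins and 16.4 and 22.9 CPM in the upper ones. Bcl2l1 went from 10.7 to 24.4 CPM, and Pmaip1 was 3.04, 3.72, 4.61 and 1.02 CPM with wide intervals. Bnip3 was highest in the middle, at 392, 670.1, 617 and 339 CPM. Bcl2 was lowest at 1000 to 10000 CPM of Col10a1, at 46.4, 34.2, 16.4 and 37.6 CPM, and Mcl1 stayed between 165 and 199 CPM. Bbc3 was 18 CPM in the lowest bin and 31.6 to 36.9 CPM in the others. Bcl2l11 (31.5, 38.7, 28.0 and 43.7 CPM) had no single order. The share of cells with more than 14 WPRE UMIs was 0.90%, 11.2%, 40.6% and 77.2%, and median depth was 21249 UMIs in the lowest and 33517 in the highest bin.

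**Figure D4:**
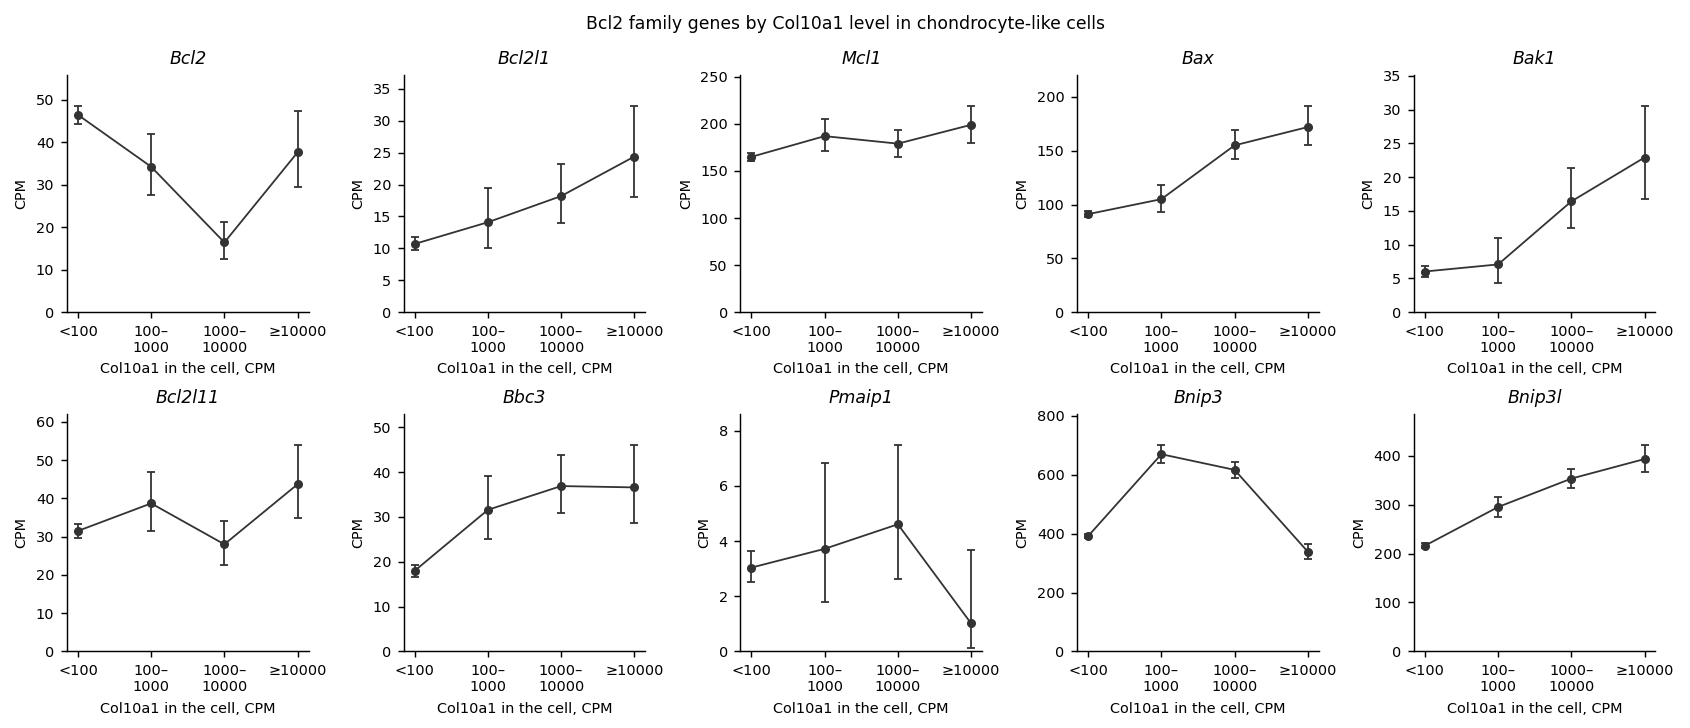
Level of each gene, in CPM, in chondrocyte-like cells binned by their own Col10a1 level. Points are the summed level of a bin and bars its 95% Poisson interval, and each vertical axis starts at 0. Bnip3l goes from 216 to 393 CPM over the bins, and Bnip3 is highest, at 670.1 CPM, in the second bin.

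Against immature osteoblast-like cells, of which 18.2% carried the reporter at more than 14 WPRE UMIs, Bnip3 (4.10, 3.87 to 4.33), Bnip3l (1.44, 1.33 to 1.54) and Bbc3 (1.08, 0.75 to 1.42) were past 2-fold higher in HC-like cells. These are 3 of 10, beside 15% of 10827 genes tested, and none was past 2-fold lower, beside 20.2%. Bcl2l1 (0.54) and Bax (0.41) were higher and Bak1 (-0.51) and Mcl1 (-0.39) lower, with intervals that excluded 0. Bcl2 (-0.22), Bcl2l11 (-0.17) and Pmaip1 (-0.48) had intervals that included 0. The effectors and Bcl2l11, which were past 2-fold over pre-HC-like cells, were within 2-fold here. So was Pmaip1, in 12 of 16 alternatives, with a range from -1.94 with at most 5% mitochondrial UMIs to 0.61 when thinned. It was past 2-fold lower at that mitochondrial limit, with doublets left out, with HC-like cells defined by Col10a1 and with 3000 variable genes. The median was 0.12 over the 10 genes and -0.10 over all genes. Without the cluster led by Cxcl12 and Adipoq, Bcl2l1 was past 2-fold (1.23), and under at most 5% mitochondrial UMIs Bnip3 was at 2.47.

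Mature osteoblast-like cells had less of 4 genes than HC-like cells: Bnip3 (3.25), Bnip3l (2.14), Bcl2l1 (1.47, 1.01 to 1.92) and Bax (1.31, 1.16 to 1.45). That is 4 of 10 past 2-fold higher in HC-like cells, beside 23.6% of genes tested, and none lower, beside 8.39%. Bcl2 (0.71) and Bbc3 (0.40) were higher and Bcl2l11 (-0.44) lower, with intervals that excluded 0, and Mcl1 (0.07), Bak1 (0.33) and Pmaip1 (-0.30) could not be told from even. The median was 0.55 over the 10 genes and 0.41 over all genes tested. Relative to the latter, Bax was at 0.90 and no longer past 2-fold, and Mcl1 (-0.34) and Bak1 (-0.08) were below 0. With doublets left out Bnip3 was at 4.78, and Bcl2l1 was within 2-fold at resolution 1.5 (0.79), with at most 20% mitochondrial UMIs (0.89) and with at least 2500 genes (0.93).

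Within the osteoblast-like cells, 286 had more than 14 WPRE UMIs and counted as HC-derived, and 900 did not. With both classes pooled no member was past 2-fold, beside 0.860% of 9884 genes tested higher and 2.05% lower in HC-derived cells. Median depth was 15778 UMIs in HC-derived and 12676 in the other cells. The differences furthest above 0 were Pmaip1 (0.76, 0.37 to 1.14), Bbc3 (0.44, 0.14 to 0.73) and Bcl2 (0.37, 0.12 to 0.63), each higher in HC-derived cells, and Bak1 (-0.34, -0.63 to -0.06) and Bax (-0.16, -0.29 to -0.02) were lower. Of the HC-derived cells 149 were mature, and of the others 284, so the pooled ratios mix the classes unequally. Within immature cells Bbc3 was at 0.15 (-0.39 to 0.68), Bak1 at -0.21 and Bax at -0.03, with intervals that included 0. In mature osteoblast-like cells, Bcl2 was 26.2 CPM (21.0 to 32.4) in HC-derived and 14.9 CPM (11.9 to 18.4) in the other cells, and in immature ones 46.9 CPM (37.7 to 57.8) against 34.5 CPM (30.3 to 39.0), where the intervals overlapped. Pmaip1 was 20 CPM (14.2 to 27.5) against 8.31 CPM (6.36 to 10.7) in immature cells, a log2 ratio of 1.18 (0.63 to 1.72) that is past 2-fold, and 11.5 CPM against 8.14 CPM in mature cells. Mcl1 was higher in HC-derived cells of both classes, at 339 against 288 CPM and 242 against 202 CPM. Bnip3l was alike in mature cells, at 94.4 against 95.6 CPM. The cells compared within a class were not alike in maturity. The mature osteoblast gene Bglap was at 2793 CPM in HC-derived against 14521 CPM in other mature cells, and at 48.0 against 336 CPM in immature ones. Mmp13 was at 1336 against 372 CPM and at 5980 against 3112 CPM. Origin and maturity cannot be told apart in these ratios. Along the cells that carried the reporter, Bnip3l was 438 CPM in the 87 HC-like, 169.8 CPM in the 137 immature and 94.4 CPM in the 149 mature cells. Bnip3 was 301, 12.7 and 25 CPM in the same cells. Bax went 216, 159 and 89.0 CPM and Mcl1 233, 339 and 242 CPM. Bcl2l11 was 62.7, 61.7 and 93.5 CPM, and Bcl2 29.6, 46.9 and 26.2 CPM.

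The 4 pooled blood types differed from HC-like cells in both directions. Bnip3 (4.60, 4.45 to 4.75), Bcl2 (1.97, 1.67 to 2.27), Bax (1.22, 1.11 to 1.34) and Bnip3l (1.01, 0.93 to 1.09) were past 2-fold higher in HC-like cells, 4 of 10 beside 29.7% of 10744 genes tested. Pmaip1 (-1.77, -2.27 to -1.28) and Bcl2l11 (-1.33, -1.53 to -1.13) were past 2-fold lower, 2 of 10 beside 20%, a share no larger than that of all genes. The median was 0.52 over the 10 genes and 0.20 over all genes. The pooled ratio hid differences between the blood types. Mcl1 was higher in HC-like than in erythroid-like cells (1.14, 1.0 to 1.28), even with B lineage-like cells (0.03) and lower than in monocyte or macrophage-like cells (-2.22, -2.32 to -2.11). Pmaip1 likewise ran from 2.18 against erythroid-like to -3.56 against monocyte or macrophage-like cells, and Bcl2l11 from 0.27 against neutrophil lineage-like to -3.17 against monocyte or macrophage-like cells. Bbc3 was higher than in neutrophil lineage-like cells (2.48) and lower than in erythroid-like cells (-0.56). Bcl2 lay between 1.4 (monocyte or macrophage-like) and 2.93 (erythroid-like) over the 4 types, and Bnip3 between 3.96 and 5.94. For Bnip3l the pooled call was borderline, and at 5000 UMIs per cell it was 0.77.

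The 9 lists of related genes, beside the members, placed these values in their pathways. For each, the share of all genes to set beside it is 25.3% higher and 5.48% lower over pre-HC-like cells, and 15% higher and 20.2% lower over immature osteoblast-like cells. Against pre-HC-like cells, 6 of 11 tested genes of the apoptosome and caspase list were past 2-fold higher in HC-like cells and none lower, with a median of 1.1 against 0.52 over all genes. They included Casp6, an effector caspase gene (29.1 against 7.11 CPM, 1.89), and Cycs, the cytochrome c that Bax and Bak1 release (558 against 199 CPM, 1.49). Against immature osteoblast-like cells, 2 of 12 were higher and 2 lower, with a median of -0.31 against -0.10. In the list of other effectors and BH3-only genes, 3 of 5 were past 2-fold higher than in pre-HC-like cells (Bcl2l12, Bmf and Bcl2l13). The list is broad, since Bcl2l12 and Bcl2l13 are not established effectors or BH3-only genes. Bok (0.66) and Bad (0.91) were within 2-fold. Against immature osteoblast-like cells 2 of 6 were lower. Among these was Bok, another effector, at 8.84 against 87.4 CPM (-3.17). Of the other pro-survival genes, 1 of 2 tested was past 2-fold higher than in pre-HC-like cells. This was Bcl2a1b, at 8.27 against 0.685 CPM (2.46), a leukocyte gene that stood at 625 CPM in monocyte or macrophage-like cells and has near-identical copies between which reads may be split.

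Death receptor and adaptor genes were past 2-fold higher than in pre-HC-like cells in 5 of 7 (median 1.07 against 0.52 over all genes, with 25.3% of them higher), among them Tnfrsf1a (79.3 against 25.9 CPM, 1.58), Ripk3 (1.29) and Tradd (1.18). Against immature osteoblast-like cells 1 was higher, Tnfrsf10b (1.72), and 1 lower, Ripk3 (-1.51). Of the caspase inhibitors, 2 of 6 were higher than in pre-HC-like cells (Birc3, 1.49, and Birc5, 1.31), a share near the 25.3% of all genes, with a median of 0.67. Birc5 also acts in mitosis and stood at 20.5 CPM in HC-like against 148 CPM in immature osteoblast-like cells (-2.79), the 1 gene of 6 lower there.

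In the list of p53 and its targets, Trp53inp1 (82.4 against 6.93 CPM, 3.39) and Trp53 (87.9 against 18.7 CPM, 2.17) were past 2-fold higher than in pre-HC-like cells, 2 of 7 and thus near the 25.3% of all genes. Against immature osteoblast-like cells 4 of 7 were higher, with Ccng1 (155 against 26.2 CPM, 2.52) and the cell cycle inhibitor Cdkn1a (726 against 257 CPM, 1.49) among them, and Trp53inp1 at 1.80. The list median there was 1.03, against -0.10 over all genes. Among factors upstream of BH3-only genes, Ddit3 (CHOP) and Trib3, of the endoplasmic reticulum stress response, were higher in HC-like than in pre-HC-like cells (177 against 59.4 CPM, 1.56, and 97.0 against 32.4 CPM, 1.55), again 2 of 7, with a list median of 0.22 under that of all genes. Chac1, of the same list, was lower in HC-like than in pre-HC-like cells but within 2-fold (33.9 against 55.6 CPM, -0.69), and Atf4 was at 0.22. Against immature osteoblast-like cells Trib3 (4.26), Chac1 (2.83) and Ddit3 (1.84) were higher, 3 of 7, and Jun lower (-1.30).

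The mitophagy list, which holds genes that act beside Bnip3 and Bnip3l, had 3 of 9 genes past 2-fold higher than in pre-HC-like cells and 4 of 9 higher than in immature osteoblast-like cells, beside 25.3% and 15% of all genes, with none lower. The share over pre-HC-like cells was thus near that of all genes. The medians were 0.71 and 0.98, against 0.52 and -0.10 over all genes. Map1lc3b, whose protein coats autophagosomes and is bound by Bnip3 and Bnip3l, was at 1319 CPM in HC-like, 376 CPM in pre-HC-like and 285 CPM in immature osteoblast-like cells (1.81 and 2.20). Map1lc3a (2.0 over pre-HC-like cells) and Sqstm1 (1.49 and 1.48) were higher too, and Gabarap was at 1.37 over immature osteoblast-like cells. Genes of the hypoxia list differed among themselves. Against pre-HC-like cells 3 of 14 of its genes were past 2-fold lower and 1 higher, with a median of -0.51 against 0.52 over all genes, and against immature osteoblast-like cells 7 of 13 were higher and 2 lower, with a median of 1.19 against -0.10. Car9 was at 1.71 against 21.4 CPM in pre-HC-like cells (-3.05), and the glucose transporter gene Slc2a1 (216 against 15.6 CPM, 3.71) and P4ha2 (312 against 35.9 CPM, 3.08) were higher than in immature osteoblast-like cells. Epas1 (HIF-2α) was higher than in pre-HC-like (1.23) and lower than in immature osteoblast-like cells (-2.98).

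**Figure D5:**
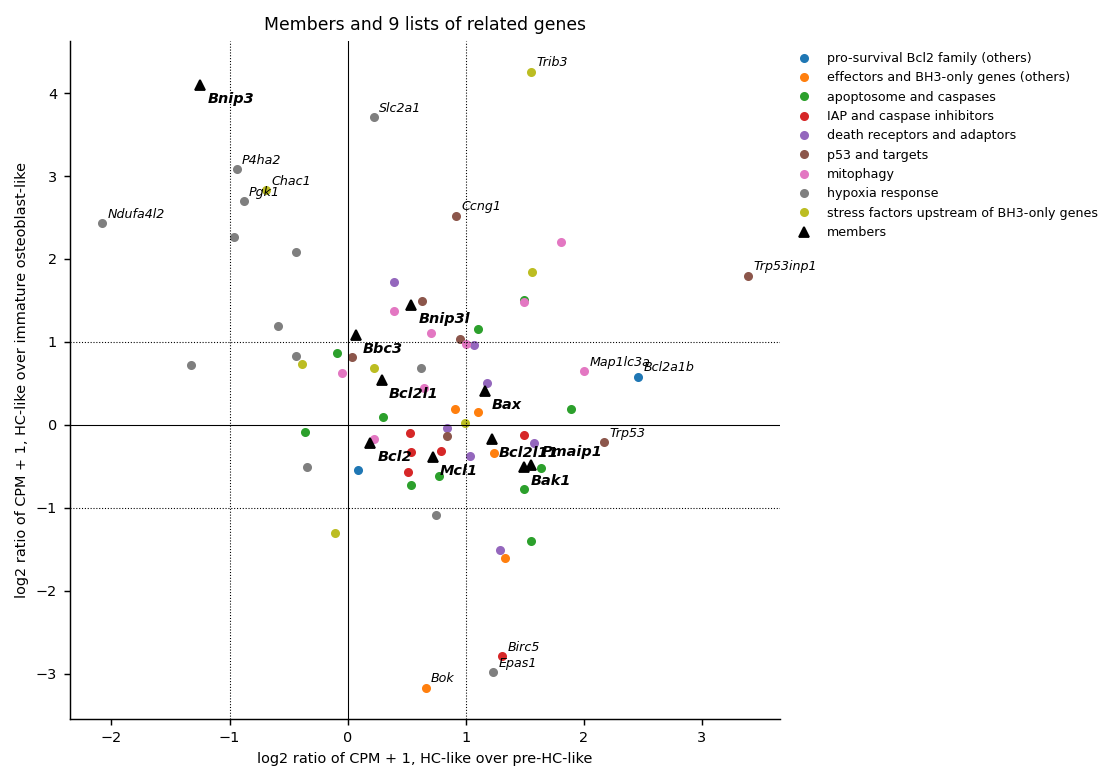
Log2 ratio of HC-like to pre-HC-like cells (horizontal) against the ratio of HC-like to immature osteoblast-like cells (vertical) for genes of 9 lists with at least 5 CPM in both comparisons and for the 10 members (triangles). Both ratios have the same HC-like cells as numerator, and dotted lines mark 2-fold. Bnip3 lies at upper left, at -1.25 and 4.10, with hypoxia genes such as P4ha2.

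The genes most like each member over the 28 clusters were found by Pearson's r of log2(CPM + 1) among 10723 genes, as a description with points that share 1 library. Bnip3 was most like Higd1a (0.95), Mgarp (0.95) and Hapln1 (0.94), the last a cartilage link protein gene. Mcl1 was most like Nfkbiz (0.93), Cflar (0.91) and Gla (0.91), Bak1 like Rab35 (0.93), Shkbp1 (0.92) and Cfl1 (0.90), and Pmaip1 like Ms4a6c (0.91), Tnip3 (0.89) and Mpeg1 (0.89). Bcl2l11 came next to Pim1 (0.88), Gpr132 and Arih2 (both 0.87), Bax to Atp5l (0.86), Vcp (0.84) and Eif4a1 (0.83), and Bcl2 to Pmepa1, Egr1 and Myo6 (0.82 each). Bnip3l (Eif1, 0.75, Gabarapl2, 0.71, and Lpcat3, 0.66), Bbc3 (Sars and Scly, 0.73, and March5, 0.71) and Bcl2l1 (Natd1, 0.65, Zfand6, 0.63, and Snx11, 0.62) had no gene as close.

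The members lie on 7 chromosomes of GRCm38. By the GENCODE M21 annotation, Bnip3 (ENSMUSG00000078566) covers chr7:138890836-138909519 on the minus strand, Bnip3l (ENSMUSG00000022051) chr14:66985239-67008877 on the minus strand, Bax (ENSMUSG00000003873) chr7:45461697-45466898 on the minus strand and Mcl1 (ENSMUSG00000038612) chr3:95658788-95663176 on the plus strand. Genes annotated on the same strand overlap Bcl2 (Mir3473f and Gm37053) and Bax (Gm45808), so reads there may be shared or dropped.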

How the data were processed

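P6 tibia cells were captured with the 10x 3′ protocol, and the UMI counts deposited by the authors come from Cell Ranger 3.1.0 on mm10 with tdTomato and WPRE added (Seurat 3 also appears in the submitters' processing notes). They are raw and cover 14181 barcodes, with 4 sequencing entries counted together as 1 library. No source used here states the annotation release. Of 31053 gene identifiers, 30934 matched GENCODE M21. Every column of values was used or mapped. P56 cells were not analysed here.

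Barcodes with at least 1600 genes, at most 10% mitochondrial and at most 50% ribosomal protein UMIs were kept, in all 8255 with a median of 13957 UMIs. After scaling to 10000 per cell, 2000 variable genes (the members, list genes, Mmp genes and Pth1r left out), 30 components, 20 neighbours and Leiden resolution 1 gave 28 clusters (seed 1). Class names came from 19 marker lists, and the naming rule was written once the clusters were known, so names may differ from those of the study. In 6 clusters (1145 cells) no name was given. Scrublet, at an expected 10%, marked 588 of all barcodes (4.15%) as doublets, and the 460 among the cells kept stayed in. The tools were scanpy 1.11.5, igraph 0.11.9 and scikit-learn 1.9.0 for clusters, numpy 2.4.6, pandas 2.3.3, anndata 0.12.19 and scipy 1.17.1 for tables and intervals, and matplotlib 3.10.9 for plots, all in Python 3.11.15.

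A level is the sum of a gene's UMIs in a class per 1000000 UMIs (CPM) with an exact Poisson interval. Shares have Clopper-Pearson intervals, and both kinds (95%) cover counting error only. Cells of 1 mouse are not replicates, so no test was run. For shares of cells with a UMI, cells were thinned to 5000 UMIs, which left out 1 pre-HC-like cell, no HC-like cell and at most 147 of another class. The study's cut of more than 14 WPRE UMIs defined HC-derived cells. Named genes are the 10 members, list genes past 2-fold (up to 4 per list and comparison), the 3 genes most like each member, and class markers. Members, lists and rules were chosen with earlier results of these data known. Other limits on cells, clusterings, pseudocounts and class definitions were tried. RefSeq promoter windows were searched, without Bnip3l and Pmaip1. Some genes of the lists are not reported here by name.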

Additional observations from a re-analysis of the deposited data

Results flagged for a closer look

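Barcodes that had been left out of all comparisons also held UMIs of the 10 genes, above the level of 3 UMIs in each set (0.798 CPM for the 449 barcodes with over 10% mitochondrial UMIs and 0.174 CPM for the 5476 barcodes with under 1600 genes). In the 449 barcodes of high mitochondrial share, Mcl1 was 333 CPM, Bnip3l 159 CPM, Bcl2l11 155 CPM and Bax 103 CPM. Bnip3 was 40.4 CPM there, Bcl2 36.2 CPM, Bak1 23.7 CPM, Bbc3 20.5 CPM, Bcl2l1 17 CPM and Pmaip1 16.8 CPM. In all cells kept, Bcl2l11 was 103 CPM, Bax 113 CPM and Bnip3 163 CPM.

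In the 5476 barcodes with few genes, Bnip3l was 374 CPM, Mcl1 289.7 CPM and Bcl2l1 113 CPM, against 198, 312 and 13.8 CPM in all cells kept. The red cell gene Hba-a1 stood at 74818 CPM in these barcodes, and its part in the Bcl2l1 and Bnip3l levels was not tested. Bcl2l11 was 95 CPM, Bax 39.9 CPM, Bbc3 24.9 CPM, Bnip3 14.6 CPM, Bcl2 12.5 CPM, Bak1 9.56 CPM and Pmaip1 7.19 CPM.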

How the results depend on the processing

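No paired analysis was possible because there is 1 library and no test, and for the same reason no replicate could be left out. Against pre-HC-like cells 5 members were past 2-fold, and 2 were with at most 5% mitochondrial UMIs, at least 2500 genes per cell, 3000 variable genes, doublets left out, HC-like cells defined by at least 5000 CPM of Col10a1, or ratios centred on the median of all genes. Against maturing cells 6 were, and 3 with 5 CPM added or the Col10a1 definition and 2 when centred. From maturing to pre-HC-like cells 2 were, and 0 with at most 5% or 20% mitochondrial UMIs. There it was 1 with at least 2500 genes, resolution 0.6 or 1.5, 3000 variable genes, all genes allowed as variable, doublets left out, 5 CPM added, the Col10a1 definition, thinning to 5000 UMIs, or without the cluster led by Il11. In the other 4 comparisons, each alternative gave a count within 1.5 times the reported one. Of 1210 values of single genes under an alternative, 903 stayed within the counting interval of the reported value, 306 lay outside it and 1, past 2-fold as reported, changed sign: Pmaip1 over maturing cells was -0.01 with at most 5% mitochondrial UMIs. Sign changes of ratios reported within 2-fold are counted among the 903 and 306. For example, Bcl2 over pre-HC-like cells kept its sign in 9 of 15 alternatives and Bnip3 over maturing cells in 8 of 16. The cause of these shifts was not tested. HC-like cells numbered 59 to 115 over the alternatives. Centring, leaving out the clusters led by Il11 and by Cxcl12, and leaving out cells with a Ptprc UMI were chosen after seeing the data. With 26 Pmaip1 and 84 Bak1 UMIs in HC-like cells, smaller differences in these genes were not detectable at this depth.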
